A study of Gallus gallus with 6 samples.

Results

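The eyelid loci described here are those that differed most between individual chickens without following either of the divisions of the birds that the other wide differences followed. Eyelid RNA of 6 Lindian chickens, 3 black-eyelid birds and 3 light-yellow-eyelid birds, was sequenced as 1 library per bird. Lindian is a Chinese native breed, and all birds were killed 30 weeks after hatching. No treatment, transgene or sex is given in the labels, and the design asks which transcripts differ between black and light-yellow eyelids. Values are in FPKM (fragments per kilobase of locus, relative to all those counted in a library), compared on the log2(FPKM + 1) scale.

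Of 11780 loci with an Ensembl chicken identifier and a mean of at least 1 FPKM over the birds, 81 (0.688%) had a span of at least 3, the span being the highest minus the lowest log2(FPKM + 1) among the 6 birds. From these, 11 were set aside because the black and light-yellow birds did not overlap, and 24 because black birds 2 and 3 and light-yellow bird 1 did not overlap with black bird 1 and light-yellow birds 2 and 3, a division found earlier in these data. The remaining 46 are called the variable loci here. They were chosen by their FPKM values in these 6 birds, so their spans and the overlap of the colours are description and carry no test. Just inside the threshold stood ENSGALG00000019793 with a span of 3.01 and ENSGALG00000017029 with 3.03, and just outside it a locus with 2.97. No locus under the mean of 1 FPKM could meet the other conditions, since a span of 3 on this scale already forces a mean above 1 FPKM.

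The deposited table pairs no identifier with a gene name, and the gene table used here (25635 entries) gives an Ensembl identifier for 0 of them. No role, position or sequence can therefore be given for any of the 46, and the 16 lists of pigment, keratinocyte, gland, muscle, immune and other genes that had been drawn up could not be matched. For the same reason the tissue label could not be checked against marker genes.

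As background, the avian eyelid is a thin fold with skin on its outer face and a moist conjunctiva on its inner face, around connective tissue, muscle fibres, vessels and lymphoid cells. Its dark colour comes from melanin, which melanocytes make and pass to keratinocytes. A piece of eyelid gives a mixture of all these cells, and in such bulk RNA fewer cells of a type and less RNA per cell cannot be told apart.

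The libraries were similar in depth. Library totals, recovered from the steps between FPKM values, lay between 17116783 and 20621850 reads. The 100 most abundant loci held 31.8% to 37.2% of all FPKM in the black birds, and 44.9% in light-yellow bird 1, 36.1% in light-yellow bird 2 and 32.9% in light-yellow bird 3. Light-yellow bird 1 was the lowest bird for 39.6% of the 11780 loci, and the other birds for 6.3% to 15.4%.

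Spans of the 46 variable loci reached 6.72, with a median of 3.55, and 17 were at 4 or more. Over all 11780 Ensembl loci the median span was 0.76. Mean levels ran from 2.40 to 151.1 FPKM, with a median of 12.6 FPKM against 14.0 FPKM over all 11780 loci. Their mean level was thus close to that of all loci, but a mean can be raised by a single high bird. The median over loci of the median reads per bird was 179.8, against 615 over all 11780. Reads also depend on length. Their lengths were lower. The median length that the recovered reads imply was 1094 bases, against 2141 bases over all 11780, and 35 of the 46 were below that value. Wide loci set aside for the colours had a median length of 1050 bases and those set aside for the other division 1274 bases, so short loci were not particular to the 46.

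**Figure D1:**
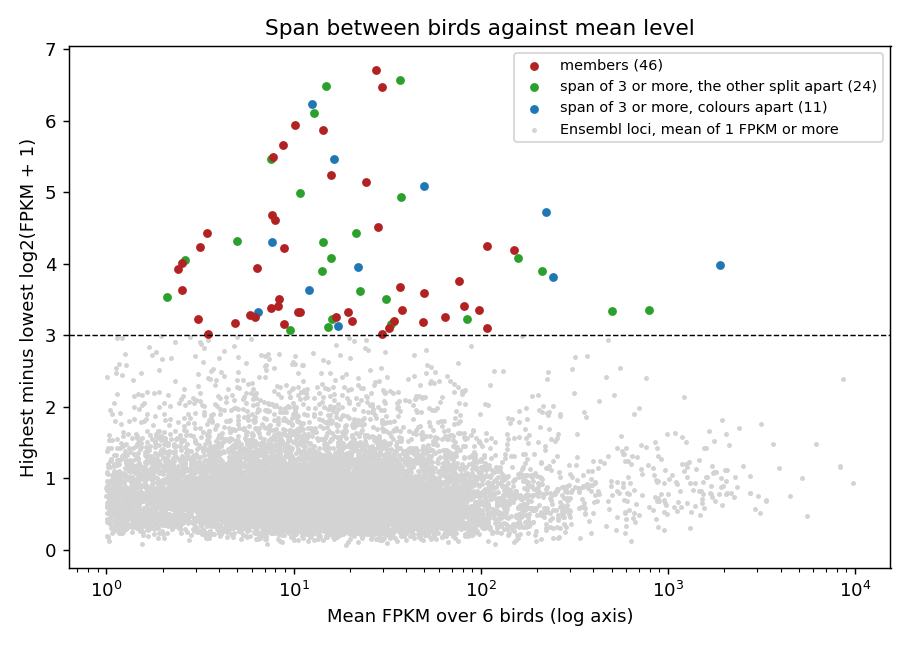
Each point is 1 Ensembl locus. The horizontal axis is its mean FPKM over 6 birds (log axis) and the vertical axis its span, the highest minus the lowest log2(FPKM + 1). The 46 members (red) and the 35 wide loci left out (green and blue) lie above the dashed line at a span of 3, and most loci lie far below it, around the median of 0.76.

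The highest bird of a variable locus had between 60 and 20713 reads, with a median of 1475. The exact two-sided 95% Poisson intervals of the highest and lowest bird overlapped in 0 of the 46, which the choice of wide spans largely fixes. Low counts lay in the lowest birds. In 10 loci some bird had 0 reads, and in 17 the lowest bird had 10 reads or fewer. These intervals cover counting error only.

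To describe which birds were high or low, the 6 values of a locus were sorted and cut at the largest gap between neighbours. Such a cut exists for every locus, whether or not 1 bird stands far from the rest. In ENSGALG00000022586, with 1 bird alone below it, the gap took only 30.1% of the span. In 24 of the 46 (52.2%) 1 bird stood alone above that gap, and in 6 (13.04%) 1 bird stood alone below it, against 21.4% and 28.8% of all 11780 Ensembl loci. Among the wide loci set aside for the other division these shares were 45.8% and 8.3%, and among those set aside for the colours 36.4% and 27.3%. The gap took a median of 52.9% of the span, against 52.4% and 53.6% in these 2 sets and 42.6% over all 11780. Neither the single high bird nor the size of the gap was thus particular to the variable loci. In the remaining loci 2 birds (5 loci), 3 birds (5 loci) or 4 birds (6 loci) lay above it.

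**Figure D2:**
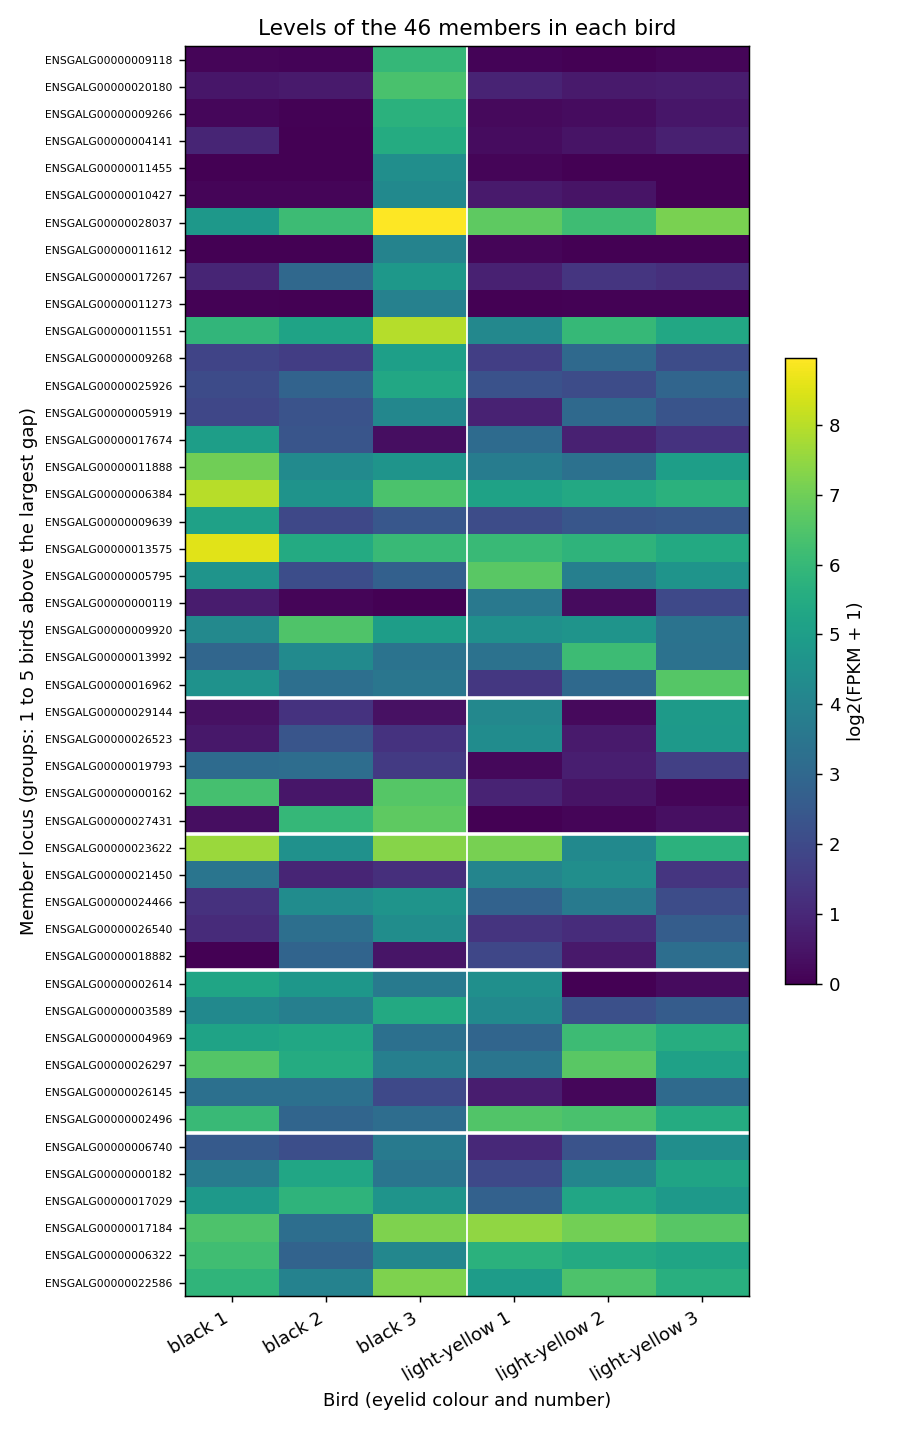
Rows are the 46 members and columns the 6 birds, black left of light-yellow, with colour showing log2(FPKM + 1). White lines separate members with 1, 2, 3, 4 and 5 birds above their largest gap. The first 14 rows are high in black bird 3 alone, and the following 5 in black bird 1 alone.

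Black bird 3 was most often the bird alone above the gap. It stood alone above the gap in 14 of the 46 (30.4%), black bird 1 in 5 (10.9%), black bird 2 in 1, and light-yellow birds 1, 2 and 3 in 2, 1 and 1. Over all 11780 Ensembl loci the shares were 5.42%, 4.81% and 4.17% for black birds 3, 1 and 2. For light-yellow birds 1, 2 and 3 they were 2.26%, 2.4% and 2.31%. Black bird 3 was also the highest bird of 20 variable loci (43.5%), against 19.1% of all 11780 Ensembl loci, and the lowest of 2. Summed over the 46, its level was 2255 FPKM, that of black birds 1 and 2 was 1803 and 735.5 FPKM, and that of light-yellow birds 1, 2 and 3 was 1017, 1011 and 1006 FPKM. The light-yellow birds were thus close to each other in this sum and the black birds far apart, with black bird 2 lowest of the 6. The sum leans on abundant loci, such as ENSGALG00000028037 at 494.2 FPKM in black bird 3. Close sums did not mean like levels, since ENSGALG00000016962 ran from 1.73 to 96.1 FPKM among the light-yellow birds. At the other end, black bird 2 and light-yellow bird 1 were each the lowest bird of 11 variable loci (23.9%), against 9.5% and 39.6% of all 11780. In 3 loci several birds shared the lowest value of 0 FPKM.

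**Figure D3:**
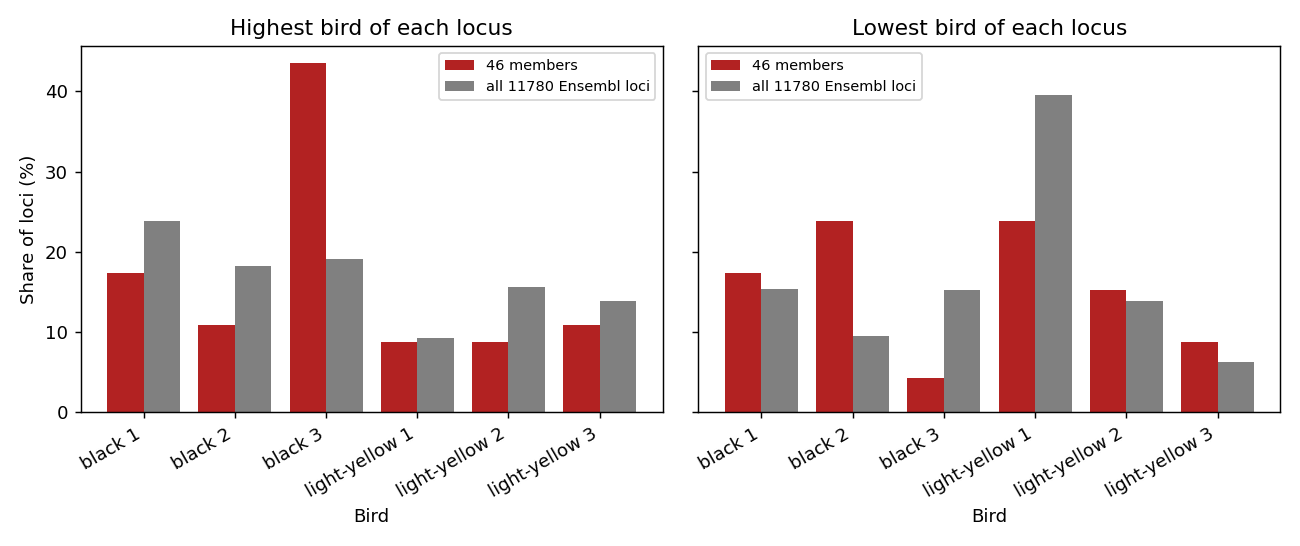
Bars give the share of loci (%) for which each bird was the highest (left panel) or the lowest (right panel), red for the 46 members and grey for all 11780 Ensembl loci. Black bird 3 is the highest bird of 43.5% of the members, and light-yellow bird 1 is the lowest of 39.6% of all loci but of 23.9% of the members.

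Within the black bird 3 set, 8 of the 14 loci were under 1 FPKM in every other bird and between 14.3 and 83.0 FPKM in black bird 3. ENSGALG00000009118 was at 0.083, 0.075 and 60.6 FPKM in black birds 1, 2 and 3, against 0.072, 0 and 0.088 FPKM in light-yellow birds 1, 2 and 3. Behind these values lay 4, 3 and 2796 reads in the black birds and 3, 0 and 4 reads in the light-yellow birds. It was thus at the edge of detection in 5 birds and a well-counted transcript in black bird 3. ENSGALG00000020180 reached 83.0 FPKM in black bird 3, with 0.44 and 0.57 FPKM in black birds 1 and 2, against 0.86, 0.58 and 0.59 FPKM in light-yellow birds 1, 2 and 3. That is 96.5 times the next bird, which had 39 reads. Every other bird had at least 23 reads counted at this locus, and their origin was not tested.

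The other 6 of these 8 had the same shape at various depths, and they and the loci of the next paragraphs were picked out after their values were seen. ENSGALG00000009266 was at 52.0 FPKM in black bird 3, from 2751 reads, and at 0.043 to 0.44 FPKM in the rest, from 2 to 23 reads. ENSGALG00000004141 was at 44.2 FPKM in black bird 3 (428 reads) and between 0 and 0.88 FPKM elsewhere, from 9 reads at most. ENSGALG00000010427 had 212 reads in black bird 3 and at most 6 in any other bird. The remaining 3, ENSGALG00000011455, ENSGALG00000011612 and ENSGALG00000011273, were nearest to being detected in 1 bird only. Their reads in black bird 3 numbered 249, 433 and 319, and in no other bird did they exceed 1, 2 and 1. A count of 0 there allows up to 3 reads in a library, as a one-sided limit at 95%.

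A different shape held in 4 loci of the black bird 3 set, which were at 1 FPKM or more in all birds and were raised in black bird 3 by 3.53 to 6.23 times over the next bird. ENSGALG00000028037 was at 26.0, 69.9 and 494.2 FPKM in black birds 1, 2 and 3, against 104.7, 71.8 and 140.0 FPKM in light-yellow birds 1, 2 and 3. Without black bird 3, its highest birds would be light-yellow, and the mean log2 difference over all 6 birds, black minus light-yellow, was -0.06 (SE 0.90). ENSGALG00000011551 was at 58.3, 36.0 and 246.5 FPKM in the black birds, against 17.3, 63.4 and 40.6 FPKM in the light-yellow birds, and its 20713 reads in black bird 3 were the most of any variable locus in its highest bird. ENSGALG00000025926 (40.6 FPKM in black bird 3, 3.12 to 6.51 FPKM elsewhere) and ENSGALG00000009268 (32.0 FPKM, 2.12 to 7.30 FPKM elsewhere) completed the group. The last 2 loci of the set, ENSGALG00000017267 and ENSGALG00000005919, were at 26.4 and 16.5 FPKM in black bird 3, were below 1 FPKM in some other birds, and had a less isolated top, 3.74 and 2.27 times the next bird.

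Among the other 5 birds the spans of these 14 loci were 0.064 to 2.38, with a median of 0.752. Since black bird 3 stood above their largest gap by definition, these values are what remains of the span below that gap. The depth of this library, 19626098 reads, lay inside the range of the other 5, and so did its share in the 100 most abundant loci, 37.2%. Its share of wide deviations did not. Black bird 3 deviated by 2 or more on the log2 scale in 0.416% of all the Ensembl loci compared, against 0.085% to 0.144% for the other birds. Among the variable loci it did so in 17, and each other bird in 4 to 6. Wide deviations of black bird 3 were thus not confined to the variable loci. The part of library properties in the 14 loci was not tested.

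Black bird 1 stood alone above the gap in 5 loci, and in 4 of them the transcript was at 1 FPKM or more in all birds. ENSGALG00000013575 was at 371.4, 43.5 and 65.3 FPKM in black birds 1, 2 and 3, against 66.4, 55.4 and 42.2 FPKM in light-yellow birds 1, 2 and 3. ENSGALG00000011888 was at 128.1, 18.4 and 23.6 FPKM in the black birds, against 12.7, 9.11 and 31.6 FPKM in the light-yellow birds, 4.06 times the next bird. ENSGALG00000009639 was at 33.6 FPKM in black bird 1, with 2.86 and 4.41 FPKM in black birds 2 and 3, and 3.27, 4.27 and 4.62 FPKM in light-yellow birds 1, 2 and 3. In these loci black bird 1 was raised 4.06 to 7.28 times over the next bird, while the other birds of both colours were interleaved. ENSGALG00000006384 followed at 254.7 FPKM, 3.04 times the next bird, which was black bird 3 at 83.8 FPKM. The fifth, ENSGALG00000017674, had the widest span of the 5 and the least even background. It was at 31.7, 4.19 and 0.27 FPKM in black birds 1, 2 and 3, against 7.74, 0.79 and 1.48 FPKM in light-yellow birds 1, 2 and 3, resting on 365, 40 and 3 reads and on 77, 9 and 16 reads.

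The other 4 birds each stood alone in 1 or 2 loci. Light-yellow bird 3 had ENSGALG00000016962, at 22.5, 8.76 and 10.5 FPKM in black birds 1, 2 and 3, against 1.73, 7.31 and 96.1 FPKM in light-yellow birds 1, 2 and 3. Its lowest and its highest bird were both light-yellow, and the black birds lay between them. Its mean was 13.9 ± 7.49 FPKM in black eyelids and 35.1 ± 53.0 FPKM in light-yellow eyelids (SD, n = 3 each), but on the log2 scale the difference, black minus light-yellow, was 0.09 (SE 1.11). ENSGALG00000013992 was at 6.73, 18.5 and 9.56 FPKM in the black birds, against 9.50, 70.2 and 9.33 FPKM in the light-yellow birds, high in light-yellow bird 2. ENSGALG00000009920 was high in black bird 2, at 89.7 FPKM, with 17.7 and 30.8 FPKM in black birds 1 and 3, against 21.6, 24.1 and 9.57 FPKM in light-yellow birds 1, 2 and 3.

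High in light-yellow bird 1 alone were ENSGALG00000005795 and ENSGALG00000000119. The first was at 23.5, 3.38 and 5.67 FPKM in black birds 1, 2 and 3, against 99.6, 13.4 and 24.0 FPKM in light-yellow birds 1, 2 and 3. The second was at 0.60, 0.080 and 0 FPKM in the black birds, against 11.4, 0.20 and 2.97 FPKM in the light-yellow birds, from 148 reads in light-yellow bird 1. In both loci light-yellow bird 1 was followed by light-yellow bird 3, and a black bird was lowest.

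Presence in 2 birds and near absence in the other 4 gave the widest spans of the 46. ENSGALG00000027431 was at 0.26, 61.6 and 104.2 FPKM in black birds 1, 2 and 3, against 0, 0.087 and 0.28 FPKM in light-yellow birds 1, 2 and 3. Its reads were 3, 590 and 1145 in the black birds and 0, 1 and 3 in the light-yellow birds. Black bird 1 thus lay among the light-yellow birds. ENSGALG00000000162 was at 78.9, 0.47 and 96.3 FPKM in black birds 1, 2 and 3, against 0.86, 0.40 and 0.093 FPKM in light-yellow birds 1, 2 and 3, with 1806, 9 and 2098 reads in the black birds and 17, 9 and 2 in the light-yellow birds. Here black bird 2 was the bird at the light-yellow level. Between the present and the near-absent birds, the gap was 83.6% and 83.8% of the span.

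Light-yellow birds 1 and 3 were the high birds of a pair of loci with less complete gaps, 62.0% and 47.4% of the span. ENSGALG00000029144 was at 0.32, 1.48 and 0.34 FPKM in black birds 1, 2 and 3, against 17.1, 0.18 and 28.1 FPKM in light-yellow birds 1, 2 and 3. ENSGALG00000026523 was at 0.51, 4.11 and 1.46 FPKM in the black birds, against 19.4, 0.55 and 27.0 FPKM in the light-yellow birds. In each, light-yellow bird 2 lay at or below the level of the lower black birds and black bird 2 was the highest of the black birds. Their log2 values had a Pearson correlation of 0.982 over the 6 birds, the highest of any pair outside the black bird 3 set. Sharing their 2 high birds favours such a value. The same 2 birds and black bird 2 lay above the gap in ENSGALG00000018882, at 0, 6.37 and 0.44 FPKM in the black birds, against 2.76, 0.52 and 8.36 FPKM in the light-yellow birds, from at most 76 reads.

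Loci near 0 or low in some birds and present in the rest made up the opposite pattern. ENSGALG00000002614 was at 37.0, 25.5 and 11.8 FPKM in black birds 1, 2 and 3, against 20.9, 0 and 0.21 FPKM in light-yellow birds 1, 2 and 3. It had 764, 437 and 232 reads in the black birds and 372, 0 and 4 in the light-yellow birds. Light-yellow birds 2 and 3 thus had few or no reads of a transcript that light-yellow bird 1 had at the level of the black birds. The same 2 birds were lowest in ENSGALG00000003589, at 18.01, 13.5 and 42.5 FPKM in the black birds, against 17.9, 3.56 and 5.13 FPKM in the light-yellow birds, but there the transcript was present in all.

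ENSGALG00000002496 was low in black birds 2 and 3. Its levels were 66.6, 6.64 and 8.12 FPKM in black birds 1, 2 and 3, against 90.9, 82.9 and 45.0 FPKM in light-yellow birds 1, 2 and 3, so black bird 1 again lay with the light-yellow birds. These are the birds in which ENSGALG00000027431 was present. The 2 loci had a correlation of -0.976 over the 6 birds, picked out as the lowest of all 1035 pairs of variable loci. It was not tested, and no relation between the 2 loci is read from it. ENSGALG00000004969 and ENSGALG00000026297 were low in black bird 3 and light-yellow bird 1. In these 2 birds they were at 8.94 and 6.56 FPKM and at 13.6 and 10.1 FPKM, and the other birds lay at 35.7 to 68.9 FPKM and at 34.1 to 100.4 FPKM.

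Black bird 2 alone was lowest by the largest gap in 3 loci (6.5%), beside 2.11% of all 11780 Ensembl loci. Light-yellow bird 1 alone was lowest by it in another 3 (6.5%), beside a larger share, 16.94%, of all 11780. ENSGALG00000017184 was at 86.2, 8.39 and 148.8 FPKM in black birds 1, 2 and 3, against 176.9, 130.9 and 97.2 FPKM in light-yellow birds 1, 2 and 3, and the next lowest bird was 10.3 times above black bird 2. ENSGALG00000006322 was at 73.3, 6.23 and 16.8 FPKM in the black birds, against 51.2, 42.9 and 37.1 FPKM in the light-yellow birds. The third, ENSGALG00000022586, ran from 14.6 FPKM in black bird 2 to 148.4 FPKM in black bird 3. In each of the 3, black bird 2 was the only bird below the gap, by 75.8%, 38.6% and 30.1% of the span.

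The loci with light-yellow bird 1 alone below the gap were present in all birds. ENSGALG00000017029 was at 27.3, 54.9 and 23.8 FPKM in black birds 1, 2 and 3, against 5.86, 38.2 and 27.3 FPKM in light-yellow birds 1, 2 and 3. ENSGALG00000000182 was at 12.3, 38.4 and 10.2 FPKM in the black birds, against 2.93, 15.98 and 36.9 FPKM in the light-yellow birds. ENSGALG00000006740, with 12910 bases the longest of the variable loci, was at 4.85, 3.45 and 11.8 FPKM in the black birds, against 1.03, 3.90 and 20.2 FPKM in the light-yellow birds. This library was more often the lowest than any other over the 11780 loci, as given above, and its share in the 100 most abundant loci was the highest. The part of either in these 3 loci was not tested.

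The remaining 6 loci had mixed orders and spans of 3.01 to 3.50. ENSGALG00000023622, the most abundant of them, was at 195.3, 22.3 and 160.0 FPKM in black birds 1, 2 and 3, against 138.4, 18.2 and 52.6 FPKM in light-yellow birds 1, 2 and 3. ENSGALG00000021450 was at 10.1, 0.88 and 1.29 FPKM in the black birds, against 16, 20.4 and 1.62 FPKM in the light-yellow birds, so that each colour held both high and low birds. ENSGALG00000024466 and ENSGALG00000026540 were highest in black bird 3, at 23.6 and 19.8 FPKM, and next highest in black bird 2, at 19.2 and 8.53 FPKM. ENSGALG00000026145 and ENSGALG00000019793, short loci of 448 and 431 bases, were highest in black bird 2, at 8.998 and 8.13 FPKM, and close to that in black bird 1, and had 1 read in their lowest bird.

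**Figure D4:**
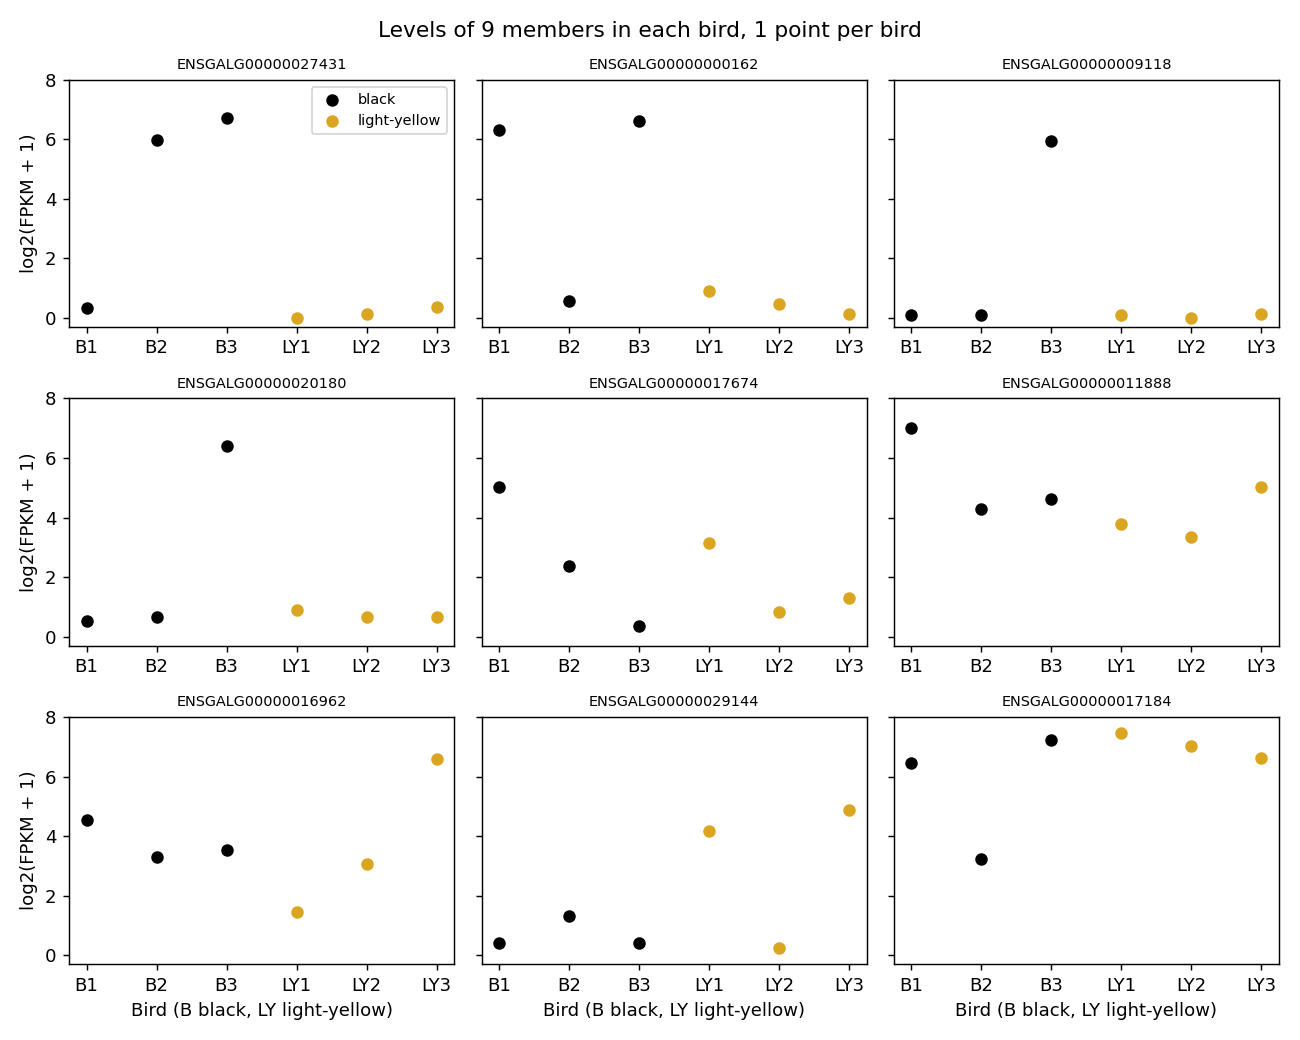
Each panel is 1 member and each point 1 bird, black birds (B1 to B3) left of light-yellow birds (LY1 to LY3), on the log2(FPKM + 1) scale. The panels show presence in 2 black birds (ENSGALG00000027431 and ENSGALG00000000162), 1 high bird (ENSGALG00000009118, ENSGALG00000020180, ENSGALG00000017674, ENSGALG00000011888 and ENSGALG00000016962), 2 high light-yellow birds (ENSGALG00000029144) and 1 low bird (ENSGALG00000017184).

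By level, the 46 fell into loci that were under 1 FPKM in some bird and loci at 1 FPKM or more in all. In 21 the lowest bird was under 1 FPKM. In 18 of these the highest was at 10 FPKM or more, and 8 of the 18 lay outside the black bird 3 set. In 25 of the 46 (54.3%) all 6 birds were at 1 FPKM or more, against 93.7% of all 11780 Ensembl loci, 62.5% of the wide loci set aside for the other division and 63.6% of those set aside for the colours. A bird with 0 reads occurred in 21.7% of the variable loci, against 8.3% and 9.1% of those set aside for the other division and for the colours, and 0.1% of all 11780.

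Apart from pairs inside the black bird 3 set, the variable loci did not move as 1 group. Over all 1035 pairs the median Pearson correlation of the log2 values was 0.035, or -0.032 without the pairs inside that set, and 37 pairs were at 0.95 or more. Of these, 34 lay among the 91 pairs of the black bird 3 set, whose correlations ran from 0.539 to 1 and follow from the choice of loci with the same high bird. The other 3 were the light-yellow pair above, ENSGALG00000009639 with ENSGALG00000013575 (0.959), and ENSGALG00000017267 with ENSGALG00000027431 (0.95). All rest on 6 birds and share the same libraries.

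Between the colours, 0 of the 46 variable loci passed limma on log2(FPKM + 1) at a Benjamini-Hochberg adjusted p under 0.05, beside 0.0302% of the 13253 loci tested. An unadjusted limma p under 0.05 was found for 8 of the 46, beside 2.6% of all tested, and limma's voom on the recovered reads called 0. Since the rule removed every locus whose colours did not overlap, nothing about pigmentation is read from these counts. On average 33 of the 46 were higher in black eyelids, with a median log2 difference of 0.833, against 63.0% and 0.065 over all 13253. Without the black bird 3 set, 20 of 32 variable loci were higher in black eyelids. The median over all loci tested was 0.0109 after median-of-ratios rescaling, -0.00412 after quantile normalization and -0.00737 without light-yellow bird 1. It thus depended on the scaling and on that bird, and no general excess in black eyelids is read from it. The median share of a locus's variance on the log2 scale that lay between the colours was 19.1%, the highest 60.5%, and in 11 loci it was under 10%. The standard error of the log2 difference had a median of 0.831 in the variable loci, against 0.244 over all 13253.

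With 1 bird left out, a variable locus often came to follow one of the divisions that the rule had removed. The colours no longer overlapped in 29 of the 46 (63.0%). Of all 11780 loci, 46.1% overlapped with all birds and not without 1. The other division no longer overlapped in 36 of the 46 (78.3%), beside 44.5% of all 11780. The 11780 include loci already apart with all birds, which could not be counted, while the rule left none of these among the 46. The shares over all loci here and below are therefore low for this comparison. For the colours, leaving out black bird 1, 2 or 3 parted 10 (21.7%), 6 (13.04%) or 7 (15.2%) of the 46, beside 20.2%, 5.3% and 4.9% of all 11780. Leaving out light-yellow bird 1, 2 or 3 parted 4 (8.7%), 4 (8.7%) or 8 (17.4%), beside 9.9%, 5.1% and 8.6%. The shares for black bird 1 and light-yellow bird 1 were thus near those of all loci, and none of these shares was tested.

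The loci that limma passed once 1 bird was left out show what a single bird did to the colour difference. They were picked by that result. This is description, since they were kept for overlapping colours and the bird left out is 1 of the birds that made them overlap. ENSGALG00000027431 had a log2 difference, black minus light-yellow, of 4.18 (SE 1.42) with all birds and of 6.18 without black bird 1. Without black bird 2 or 3 it fell to 3.37 or 2.99. ENSGALG00000002496 had -2.08 (SE 0.75) with all birds and -3.08 without black bird 1, but -1.51 or -1.64 without black bird 2 or 3. ENSGALG00000000162 had 3.99 (SE 1.39) with all birds and 5.96 without black bird 2, but 3.08 or 2.94 without black bird 1 or 3. Without any 1 light-yellow bird the 3 loci, in this order, had 4.10 to 4.28, -2.39 to -1.89 and 3.81 to 4.19. Limma passed 2 of the 46 without black bird 1, beside 0.0679% of all loci tested, and 1 without black bird 2, beside 0.00756%, but nothing is read from these counts for the same reason.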

How the data were processed

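The deposited table holds 1 FPKM column for each of 6 eyelid libraries, computed by the authors; column names equal the sample descriptions. The submitters' processing notes name HTSeq 0.6.1, TopHat, DESeq 1.18.0 and Cufflinks 2.1.1, without saying what each did. Build, annotation and strand setting: not given in the sources used here, so reads of overlapping or antisense loci, and of near-identical copies, cannot be told apart. Library preparation per the labels' protocols was TRIzol extraction and a NEBNext Ultra RNA kit.

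Members were chosen by measured values, and the members and lists were chosen with earlier results of these data known. Named loci are the widest spans of each set of birds with at least 5 members, and the widest among those higher and lower on average in black eyelids; other loci were named after their values were seen. Reads were recovered as whole multiples of the FPKM steps (17221 of 17780 loci, 99.8% of values above 0, 99.5% to 99.6% of the library totals); these may be reads or read pairs. The colour comparison used log2(FPKM + 1) and limma 3.58.1 (R 4.3.3; trended empirical Bayes, two-sided, Benjamini-Hochberg over all 13253 loci averaging 1 FPKM or more, Ensembl or not); the added 1 understates changes of low loci. Recovery and test were checked on simulated data. These had the same spread at all loci and the same change in every bird of a colour. Their FPKM were built by the formula that the recovery inverts. No simulated locus was set to be raised in a single bird, so the check does not cover such loci. Poisson intervals are exact, at 95%. Replicates are separate birds per the labels. Python 3.11.15, numpy 2.4.6, pandas 2.3.3 and scipy 1.17.1 were used.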

Additional observations from a re-analysis of the deposited data

How the results depend on the processing

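Against 46 variable loci, of which 24 had 1 bird alone above the largest gap and 6 had 1 alone below it, the rule gave 46 with no filter and when scaled to the recovered reads, 46 (43 shared) after median-of-ratios rescaling and 45 (42 shared) after quantile normalization, with black bird 3 alone above in 14, 14, 16 and 17, against 14. The count with no filter was fixed in advance, since a span of 3 forces a mean above 1 FPKM. Scaling to the recovered reads could change little, as they were 99.5% to 99.6% of the total in every library. With a mean of at least 5 FPKM the rule gave 38. The pseudocount mattered more: 62 loci with 0.5 (11 with 1 bird alone below) and 103 with 0.1 (43 alone above, 31 alone below). With a span of 2.5 there were 85 (43 above, 14 below), and with a span of 4 there were 17 (11 above, 1 below). With 1 bird left out there were 22 to 32 loci, 10 to 20 with 1 bird alone above and 2 to 7 with 1 alone below; all were among the 46, and the fewest, 22, came without black bird 3. By construction, 5 birds leave fewer chances for the colours to overlap and a span can only shrink.

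Limma called 0 of the 46 between the colours, and 0 to 2 with 1 bird left out (2 without black bird 1 and 1 without black bird 2). It called 0 of the 46 in every other alternative run, in which 0 to 7 of all loci tested were called. These runs include a replicate block on bird number, where 13 of the 46 had an unadjusted limma p under 0.05, beside 222 of all 13253 loci. Not all 46 could be tested each time: 38 were tested with a mean of at least 5 FPKM, 38 without black bird 3 and 45 without light-yellow bird 1. The numbers 1 to 3 occur in both colours, but the deviations of same-numbered birds from their colour means correlated at -0.508, -0.059 and -0.235, and nothing in the labels pairs them. Depth limits the low birds of 17 loci, with 10 reads or fewer.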

Other observations

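Loci with identifiers of another kind, here called non-Ensembl loci, were not among the variable loci by the rule. Applied to them, the same conditions kept 14 of 1473 with a mean of at least 1 FPKM (0.95%), against 46 of 11780 Ensembl loci (0.39%). Black bird 3 alone was above the largest gap in 5 of the 14, with no share over all non-Ensembl loci at hand to set beside it. The widest, Novel00754, was at 0.15, 0.56 and 129.7 FPKM in black birds 1, 2 and 3, against 0.36, 0.39 and 0.25 FPKM in light-yellow birds 1, 2 and 3. Novel00513 had the same shape at a lower level, with 19.4 FPKM in black bird 3 and at most 0.14 FPKM in the rest.

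Novel01603 was high in light-yellow birds 1 and 3, at 0, 2.02 and 1.29 FPKM in black birds 1, 2 and 3, against 26.5, 0.22 and 45.3 FPKM in light-yellow birds 1, 2 and 3. The birds stood in the same order in ENSGALG00000026523. Without positions, whether the non-Ensembl and Ensembl loci of one shape lie side by side was not examined.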
